A study of Mus musculus with 8 samples.

Results

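The costimulatory receptors of T cells are described here through 10 genes: Cd28, Icos, Cd27, Tnfrsf4, Tnfrsf9, Tnfrsf18, Tnfrsf14, Tnfrsf1b, Cd226 and Fas. They were taken by symbol from a table of 48321 gene symbols, and all 10 were found. The data were RNA-seq read counts of CD8+ T cells sorted from the spleen of C57BL/6 mice, in 8 libraries: 2 labelled WT and 2 labelled KO at day 0, and 2 of each at day 5. The series describes the cells as cultured in vitro and the mutant as Satb1 F/F; E8I-cre, in which an enhancer of the Cd8 locus drives Cre in mature CD8+ T cells and Cre removes the floxed part of Satb1, the gene of a chromatin organizer. Whether the WT cells carried the floxed alleles without Cre, the age of the mice, the culture stimulus and whether replicates came from separate mice are not given in the sources used here, so the p-values measure the spread between these libraries, which may be technical. Levels are given in CPM, the usual unit of read counts relative to a library total, here scaled by TMM factors, and each group mean is given ± SD with n = 2. In bulk RNA, fewer cells carrying a transcript and less of it per cell cannot be told apart.

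T cells need signals beside the antigen receptor to expand, survive and become effectors, and costimulatory receptors supply them. CD28 and ICOS belong to the immunoglobulin superfamily, bind B7 family ligands on antigen-presenting cells and signal mainly through PI3-kinase. CD27, OX40 (Tnfrsf4), 4-1BB (Tnfrsf9), GITR (Tnfrsf18), HVEM (Tnfrsf14) and TNFR2 (Tnfrsf1b) belong to the TNF receptor superfamily, bind trimeric ligands and signal through TRAF adaptors to NF-kB. CD27 is carried by resting T cells, whereas 4-1BB and OX40 are classically induced by activation. CD226 competes with TIGIT and CD96 for nectin-like ligands, and FAS is the death receptor of the family, which can also costimulate.

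Gene counts summed to between 4170126 and 11117971 per library, and 12597 genes passed the filter on low counts and were tested. Of the 10 receptors, 9 were tested, each reaching the filter's level at both days, and Tnfrsf14 was not. Satb1, the targeted gene, was read at 97.8 and 91.6 CPM in the day 0 libraries labelled WT and at 144 and 125 CPM in those labelled KO, which went against the label (log2 fold change 0.51, SE 0.15, edgeR adjusted p = 0.125). At day 5 it was read at 96.5 and 116 CPM in WT and at 56.5 and 62.3 CPM in KO and was lower in KO (log2 fold change -0.84, adjusted p = 0.0162), a call that was lost without WT replicate 2 of day 5 (adjusted p = 0.0848) or either KO library of day 5 (adjusted p = 0.174 and 0.156). The counts are per gene and not per exon, so transcripts from an allele with a part removed may be counted too, which was not tested. Genotype is therefore given throughout as the label of the library. The markers of CD8+ T cells (Cd3e, Cd3d, Cd3g, Cd8a, Cd8b1) summed to 9809 to 10683 CPM in WT and 9521 to 9629 CPM in KO at day 0. At day 5 the sums were lower, at 6160.2 to 6411 CPM in WT and 6858 to 6871 CPM in KO. Cd4 had at most 7 counts in any library.

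To place the genes, the sequence before their start sites was read from RefSeq promoter entries (assembly GRCm38.p6), which covered 7 of the 10 receptors with 8 start sites. Stretches outside annotated exons are shown for the receptor with the largest rise in culture (Tnfrsf9) and, for contrast, for Cd27, which fell. They are also shown for Tnfrsf4 and Tnfrsf18, neighbours of each other on chromosome 4, which rose too. For the second Tnfrsf9 start and for Fas only the motif matches are shown, with capitals marking an NF-kB consensus or AP-1 (TGANTCA) match.
Tnfrsf9, first start, plus strand, chr4:150919905-150920154: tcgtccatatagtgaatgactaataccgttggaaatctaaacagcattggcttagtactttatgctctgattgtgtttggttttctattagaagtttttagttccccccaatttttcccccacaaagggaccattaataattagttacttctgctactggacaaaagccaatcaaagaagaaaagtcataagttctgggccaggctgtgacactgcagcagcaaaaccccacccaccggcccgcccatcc
Tnfrsf9, second start, plus strand, chr4:150927951-150927971: cagctGGGGATTTCCCaggag
Tnfrsf9, second start, plus strand, chr4:150927979-150927995: tcagtTGAGTCAcaggt
Tnfrsf4, plus strand, chr4:156013611-156013694: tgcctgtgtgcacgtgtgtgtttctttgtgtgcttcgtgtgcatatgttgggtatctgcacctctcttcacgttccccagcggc
Tnfrsf18, plus strand, chr4:156026072-156026163: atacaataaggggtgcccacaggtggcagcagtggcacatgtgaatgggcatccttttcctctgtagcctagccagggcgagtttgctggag
Cd27, minus strand, chr6:125237028-125237277: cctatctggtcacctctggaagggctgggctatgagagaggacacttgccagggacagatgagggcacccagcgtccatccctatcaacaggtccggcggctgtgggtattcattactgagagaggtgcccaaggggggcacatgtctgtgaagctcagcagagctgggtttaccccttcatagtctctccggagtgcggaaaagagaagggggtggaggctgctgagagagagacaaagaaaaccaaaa
Fas, plus strand, chr19:34290443-34290459: agtggTGAGTCAgtggg

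The 250 bases before each start were searched on both strands. The NF-kB consensus was found before 1 of the 8 receptor starts, the second of Tnfrsf9, where 3 overlapping matches began 43 and 42 bases before the start; 7.25% of the 32851 RefSeq promoters hold one. The AP-1 motif was found before 2 of the 8 starts, 15 bases before the second of Tnfrsf9 and 211 bases before that of Fas, and is held by 6.75% of all promoters. The NFAT core GGAAA was found before 7 of the 8 starts, the exception being Tnfrsf1b, and is held by 55.6% of all promoters; 1 of its matches lies inside the NF-kB match of Tnfrsf9. The stretches shown for Tnfrsf4, Tnfrsf18, Cd27 and the first Tnfrsf9 start hold no NF-kB or AP-1 match. A match describes the letters of the window and is no measurement of binding.

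Most of the receptor transcripts changed over the 5 days of culture, some up and some down. From day 0 to day 5 in WT, 7 of the 9 tested receptors changed, 5 higher (Icos, Tnfrsf4, Tnfrsf9, Tnfrsf18 and Fas) and 2 lower (Cd27 and Cd226), in a comparison in which 48.3% of all tested genes were called. In KO the same 7 changed in the same directions and Cd28 was also higher, 8 of 9 against a background of 50.2%. The median log2 fold change of the 9 was 0.40 in WT and 0.67 in KO, beside -0.04 and -0.05 over all tested genes. Of all tested genes, 24.7% were called higher and 23.6% lower in WT, and 26.2% and 24.0% in KO.

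**Figure D1:**
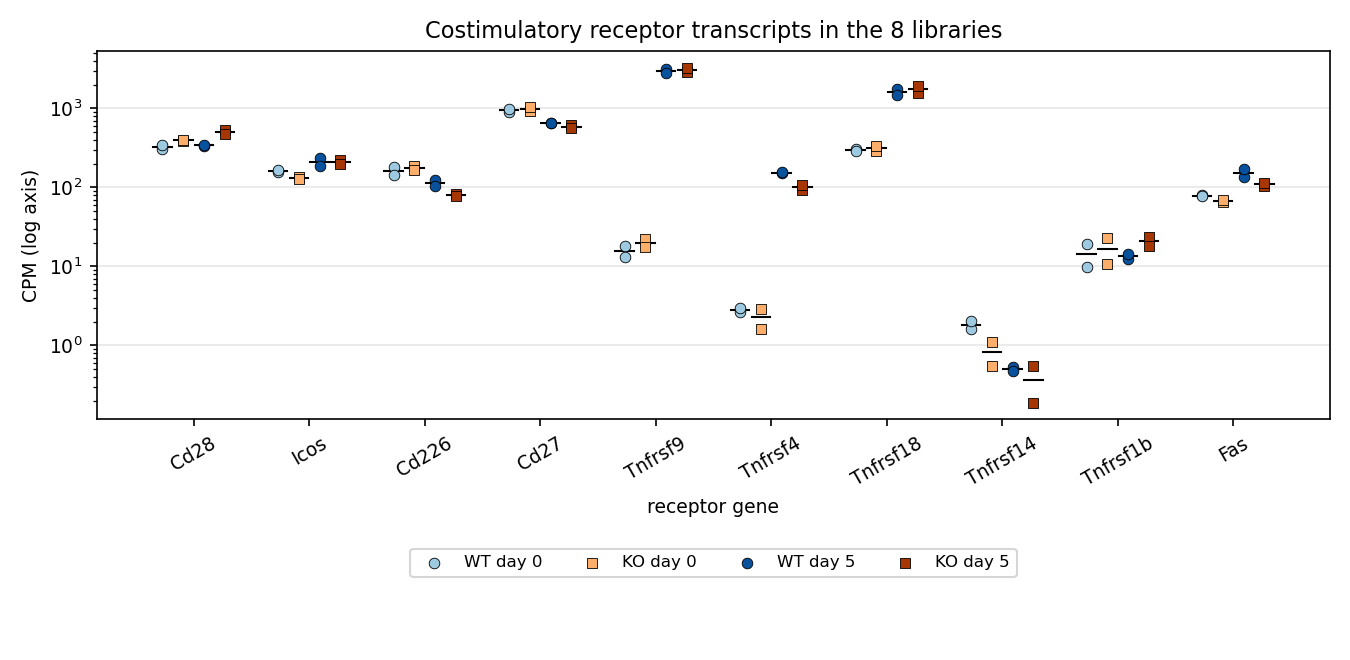
CPM (log axis) of the 10 receptor genes in each of the 8 libraries, 2 points per group (circles WT, squares KO, light day 0, dark day 5) with a bar at the group mean. Tnfrsf9 and Tnfrsf4 lie far higher at day 5 than at day 0 in every library, Cd27 and Cd226 lie lower, and Tnfrsf14 stays at or below 2.04 CPM.

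Tnfrsf9, which encodes 4-1BB, showed the largest change of the group. The day 0 libraries held 18.1 and 13.3 CPM in WT and 22.0 and 17.8 CPM in KO, and the day 5 libraries 3133 and 2814 CPM in WT and 2863 and 3282 CPM in KO. The 4 day 5 libraries lay far above the 4 day 0 libraries, and WT and KO overlapped at both days. The fitted fold was 188 in WT (log2 fold change 7.55, SE 0.19, adjusted p = 9.28e-11) and 152 in KO (7.25, SE 0.18, adjusted p = 3.95e-11). Per kilobase of exon, the scale on which genes can be compared, Tnfrsf9 stood above 54.8% of 12201 tested genes in WT at day 0 and above 99.8% at day 5.

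Tnfrsf4, which encodes OX40, rose from a low level. It had 15 and 13 counts (2.68 and 2.94 CPM) in WT and 19 and 16 counts (1.63 and 2.94 CPM) in KO at day 0. At day 5 it was read at 151 and 156 CPM in WT and at 93.8 and 107 CPM in KO. The days did not overlap, and at day 5 both KO libraries lay below both WT libraries. The rise was 54.5-fold in WT (log2 fold change 5.77, SE 0.24, adjusted p = 1.43e-09) and 47.4-fold in KO (5.57, SE 0.24, adjusted p = 1.40e-09).

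Tnfrsf18, which encodes GITR, was already abundant at day 0. It was read at 306 and 285 CPM in WT and at 289 and 334 CPM in KO, and at day 5 at 1771 and 1484 CPM in WT and 1571 and 1936 CPM in KO. The lowest day 5 library was above the highest day 0 library, and WT and KO overlapped at both days. The rise was 5.50-fold in WT (log2 fold change 2.46, SE 0.14, adjusted p = 3.34e-08) and 5.63-fold in KO (2.49, SE 0.14, adjusted p = 2.46e-08). Exons of an antisense gene, Gm16008, cover 27.2% of the exon length of Tnfrsf18, and the strand setting of the counting is not given in the sources used here, so reads of the 2 genes may be mixed. Gm16008 rose with it, by 2.31 on the log2 scale in WT and by 2.44 in KO, and the ratio of Tnfrsf18 to Gm16008 counts stayed between 2.79 and 3.27 in the 8 libraries.

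Fas, the death receptor, rose by a smaller factor. WT libraries held 80.7 and 76.9 CPM at day 0 and 134 and 169 CPM at day 5, and KO libraries 65.0 and 70.1 CPM at day 0 and 105 and 113 CPM at day 5. KO lay below WT at each day without overlap. The rise was 1.92-fold in WT (log2 fold change 0.94, SE 0.15, adjusted p = 0.000209) and 1.62-fold in KO (0.69, SE 0.15, adjusted p = 0.00175). With an offset for GC content and exon length, both calls were lost (log2 fold change 0.35, adjusted p = 0.0648 in WT, and 0.31, adjusted p = 0.0955 in KO).

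Cd27, the receptor for CD70 that supports survival of primed T cells, was the most abundant of the 10 at day 0 and fell. Levels went from 911 and 971 CPM to 660.2 and 661 CPM in WT and from 913 and 1036 CPM to 606 and 571 CPM in KO. No day 5 library reached the lowest day 0 library. The log2 fold change was -0.51 (SE 0.11, adjusted p = 0.00235) in WT and -0.73 (SE 0.11, adjusted p = 0.000163) in KO. The annotated microRNA Mir8113 covers 5.54% of its exon length on the same strand.

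Cd226, an adhesion and costimulatory receptor of cytotoxic cells, also fell. WT libraries held 184 and 141 CPM at day 0 and 124 and 103 CPM at day 5, and KO libraries 185 and 164 CPM at day 0 and 83.5 and 78.8 CPM at day 5. The days did not overlap, and the lowest values were the KO libraries of day 5. The log2 fold change was -0.52 (SE 0.16, adjusted p = 0.0160) in WT and -1.10 (SE 0.16, adjusted p = 9.57e-05) in KO. The WT call was lost without WT replicate 1 of day 0 (log2 fold change -0.31, adjusted p = 0.215) or WT replicate 2 of day 5 (-0.36, adjusted p = 0.135).

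Icos, which supports effector and helper responses, rose modestly. It was read at 155 and 168 CPM at day 0 and 238 and 187 CPM at day 5 in WT, and at 133 and 128 CPM at day 0 and 221 and 196 CPM at day 5 in KO. The days did not overlap in either genotype. The log2 fold change was 0.40 (SE 0.14, adjusted p = 0.0338) in WT and 0.67 (SE 0.14, adjusted p = 0.00163) in KO. In WT the call was kept under only 10 of 18 alternatives: it was lost with library totals alone (0.26, adjusted p = 0.108), with no filter on low counts (adjusted p = 0.0994), without either WT library of day 0 or replicate 1 of day 5 (0.24 to 0.47, adjusted p 0.0823 to 0.204) and without either KO library of day 5 (adjusted p = 0.0501 and 0.0506), and the GC and length offset took the value to -0.0053.

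Cd28, the main costimulatory receptor of T cells, rose over culture in KO and did not pass the test in WT. It was read at 304 and 342 CPM at day 0 and 332 and 347 CPM at day 5 in WT, which overlapped, and at 388 and 400.4 CPM at day 0 and 525 and 477 CPM at day 5 in KO, which did not. The log2 fold change over culture was 0.07 (SE 0.12, adjusted p = 0.646) in WT and 0.35 (SE 0.12, adjusted p = 0.0256) in KO. The KO call was lost with library totals alone (0.16, adjusted p = 0.249), where the median of all genes itself shifted to -0.229, with no filter on low counts (adjusted p = 0.146) and without any 1 of the 4 KO libraries (0.29 to 0.42, adjusted p 0.0508 to 0.175).

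Tnfrsf1b, which encodes TNFR2, passed the test in no comparison. It ranged from 9.84 to 23.4 CPM over the 8 libraries, and the replicates lay apart, at 10.6 and 22.6 CPM in the KO libraries of day 0. Its log2 fold change over culture was -0.08 (95% interval -0.90 to 0.74) in WT and 0.29 (-0.46 to 1.04) in KO. Tnfrsf14, which encodes HVEM, the partner of BTLA and CD160, was counted 9 and 9 times in WT and 13 and 3 times in KO at day 0, and 3 and 2 times in WT and 3 and 1 times in KO at day 5. The day 0 to day 5 ratio of its pooled counts was 3.53 in WT (95% exact interval 1.26 to 12.2) and 2.51 in KO (0.808 to 10.3), intervals that cover counting error only.

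**Figure D2:**
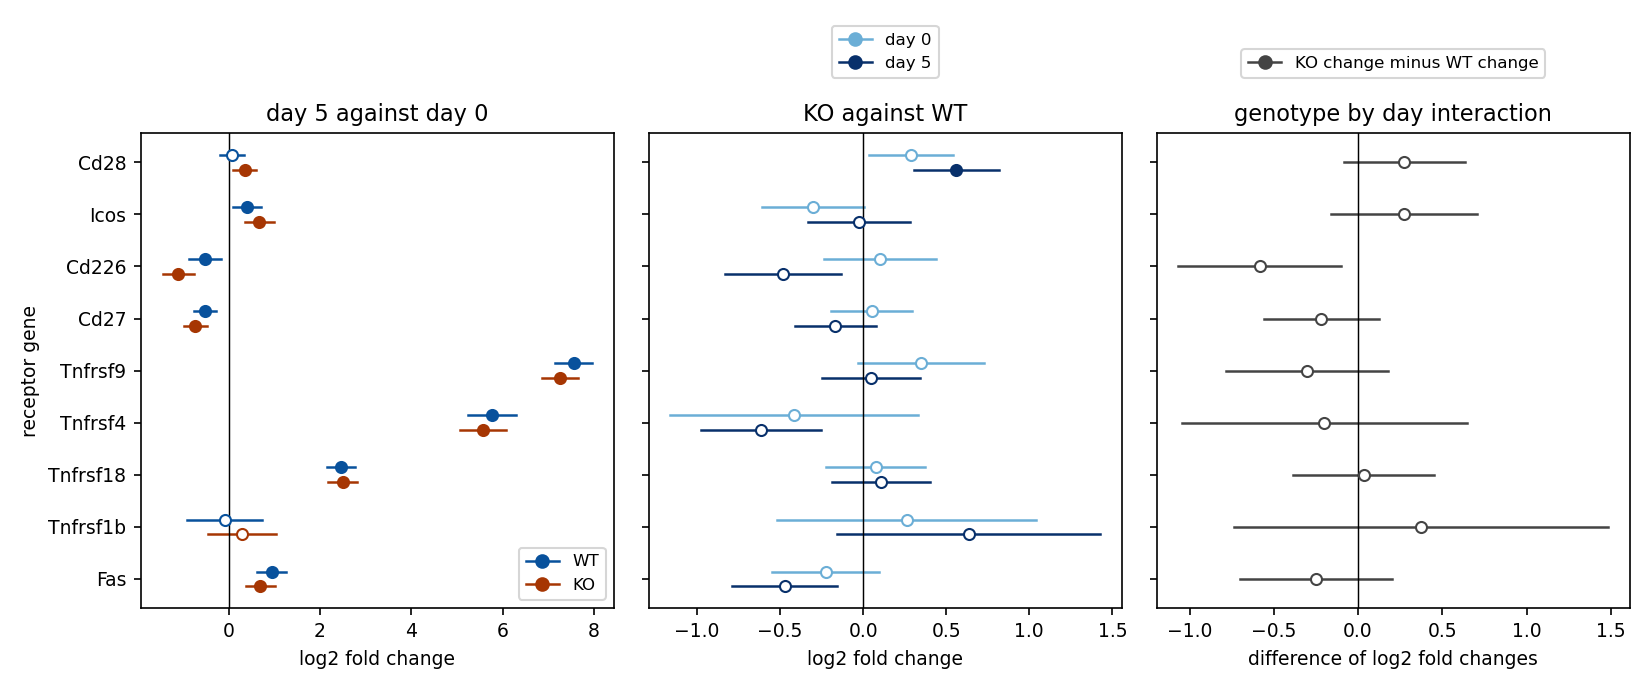
Log2 fold change (points) with 95% intervals (lines) of the 9 tested receptors for day 5 against day 0 in WT and KO, for KO against WT at day 0 and day 5, and for the difference of the culture changes between genotypes; filled points passed an adjusted p of 0.05. The culture panel reaches 7.55 for Tnfrsf9, whereas the genotype panel holds 1 filled point, Cd28 at day 5.

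The culture changes reordered the receptors. Per kilobase of exon, the order in WT at day 0 ran from Cd27 (404 ± 18.2 CPM per kb) over Tnfrsf18 (194 ± 9.87), Cd28 (52.8 ± 4.44), Icos (47.0 ± 2.73), Fas (38.2 ± 1.30) and Cd226 (33.2 ± 6.10) to Tnfrsf9 (5.77 ± 1.23), Tnfrsf1b (3.78 ± 1.70), Tnfrsf4 (2.06 ± 0.13) and Tnfrsf14 (1.27 ± 0.21). Fas and Cd226 overlapped between libraries, as did Tnfrsf9 and Tnfrsf1b, and the other neighbours did not. At day 5 in WT, Tnfrsf9 (1092 ± 82.7 CPM per kb) and Tnfrsf18 (1068 ± 133) led and overlapped each other, Cd27 (284 ± 0.32) came next and then Tnfrsf4 (113 ± 2.71). Fas, Icos and Cd28 followed between 55.5 and 73.5 CPM per kb, with each overlapping its neighbour, and Cd226, Tnfrsf1b and Tnfrsf14 came last in both genotypes. In KO at day 5, Cd28 (81.8 ± 5.52 CPM per kb) stood beside Tnfrsf4 (73.5 ± 6.82), which overlapped.

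**Figure D3:**
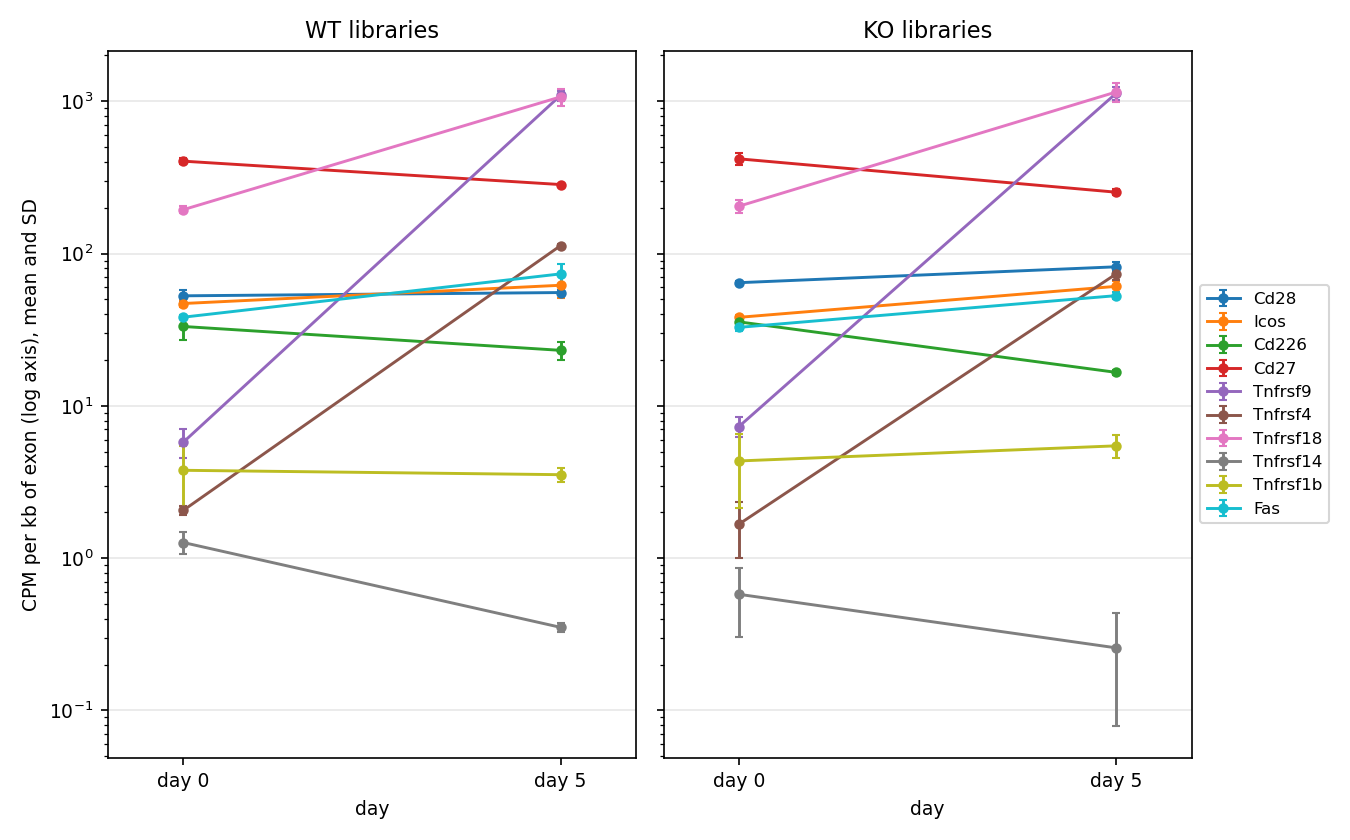
Mean CPM per kilobase of exon (log axis) of the 10 receptors at day 0 and day 5 in the WT (left) and KO (right) libraries, with bars of 1 SD (n = 2). The line of Tnfrsf9 crosses most others and that of Tnfrsf4 ends below Cd27 in WT and below Cd27 and Cd28 in KO, Tnfrsf18 rises from an already high level, and Cd27 falls from the highest level to below Tnfrsf9 and Tnfrsf18.

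Within single libraries the balance between receptors shifted in the same way. The ratio of Tnfrsf9 to Cd27, per kilobase, was 0.0118 to 0.0206 in the 4 day 0 libraries and 3.64 to 4.92 in the 4 day 5 libraries. The ratio of Tnfrsf18 to Cd27 went from between 0.449 and 0.514 to between 3.43 and 5.18. The ratio of Icos to Cd28 was 0.875 and 0.908 in WT and 0.571 and 0.615 in KO at day 0, and 0.960 and 1.28 in WT and 0.734 and 0.753 in KO at day 5, with KO below WT at both days.

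At day 0, none of the 9 tested receptors differed between KO and WT by edgeR's quasi-likelihood test, where 1.80% of all tested genes did (0.913% higher and 0.889% lower), nor under any of the 18 alternatives, DESeq2 among them. One receptor, Cd28, had an unadjusted p under 0.05, beside 13.8% of all tested genes (log2 fold change 0.29, SE 0.12, 95% interval 0.03 to 0.54, adjusted p = 0.296). Icos had a log2 fold change of -0.30 (-0.61 to 0.01, adjusted p = 0.378), and Tnfrsf9 one of 0.35 (-0.03 to 0.73, adjusted p = 0.407). The intervals were narrow for Cd27 (-0.19 to 0.29) and Tnfrsf18 (-0.23 to 0.37) and wide for the thinly counted Tnfrsf4 (-1.16 to 0.33). The median over the 9 was 0.07, beside -0.00 over all tested genes.

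At day 5, 1 of the 9 tested receptors differed between KO and WT, in a comparison in which 1.63% of all tested genes were called, 1.31% higher and 0.318% lower. Cd28 was higher in KO, at 501 ± 33.8 CPM against 339 ± 10.9 CPM, with both KO libraries above both WT libraries (1.48-fold, log2 fold change 0.56, SE 0.12, adjusted p = 0.0327). The adjusted p ranged from 0.0012 to 0.282 over 18 alternatives and passed 0.05 in 11. It was lost in a fit of the 4 day 5 libraries alone (0.0814), without either WT library of day 0 (0.0713 each) or of day 5 (0.0684 and 0.0696), and without KO replicate 1 (0.282) or 2 (0.188) of day 5, while the log2 fold change stayed between 0.49 and 0.63 in these fits. Cd28 was also among the receptors with a positive value at day 0, and its genotype by day interaction was 0.28 (-0.08 to 0.63, adjusted p = 0.535).

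Of the other 8 receptors, 3 had an unadjusted p under 0.05 at day 5, beside 14.1% of all tested genes, and lay lower in KO without overlap, but did not pass. Tnfrsf4 had 100.4 ± 9.31 CPM in KO against 154 ± 3.71 CPM in WT (log2 fold change -0.61, SE 0.17, adjusted p = 0.0922), and it passed without KO replicate 1 or 2 of day 0 (adjusted p = 0.0475 and 0.0432). Fas had 109 ± 6.06 against 152 ± 24.8 CPM (-0.47, SE 0.15, adjusted p = 0.142), and Cd226 had 81.1 ± 3.35 against 113 ± 15.0 CPM (-0.48, SE 0.16, adjusted p = 0.173). Tnfrsf1b stood at 0.63 with an interval of -0.16 to 1.43. Icos (-0.03), Cd27 (-0.17), Tnfrsf9 (0.05) and Tnfrsf18 (0.11) had smaller values, and the median over the 9 was -0.03 beside 0 over all tested genes.

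No receptor passed the test of a different culture response in KO and WT. In the interaction test, 0 of the 9 passed, beside 0.159% of all tested genes (0.0794% in each direction), and 1 had an unadjusted p under 0.05, beside 12.4% of all tested genes: Cd226, whose fall was 0.58 larger on the log2 scale in KO (SE 0.22, 95% interval -1.066 to -0.10, adjusted p = 0.325). For Tnfrsf9 the interaction was -0.30 (-0.78 to 0.18) and for Tnfrsf18 0.03 (-0.39 to 0.45), beside culture changes of 7.55 and 2.46 in WT. No alternative, DESeq2 included, called any receptor for interaction.

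Some markers of other cell types moved with the genotype labels. The 3 regulatory T-cell markers (Foxp3, Il2ra, Ikzf2) summed to 26.5 to 29.2 CPM in WT and 128 to 136 CPM in KO at day 0, with Foxp3 at 9.76 ± 0.90 against 54.8 ± 15.6 CPM and Ikzf2 at 15.6 ± 0.03 against 71.8 ± 7.81 CPM. At day 5 the sums overlapped (1796 to 2169 against 1695 to 2069 CPM), but they were mostly Il2ra, at 1945 ± 264 against 1804 ± 251 CPM. Il2ra had stood at 2.48 ± 0.97 against 5.52 ± 2.62 CPM at day 0. Foxp3 at day 5 was 16.7 ± 10.02 against 56.8 ± 7.23 CPM, and Ikzf2 was 20.98 ± 10.21 against 21.33 ± 5.98 CPM. The 4 NK-cell markers (Ncr1, Klrb1c, Eomes, Klrd1) summed to 155 to 174 CPM in WT and 58.0 to 65.0 CPM in KO at day 0, and to 151 to 156 and 93.2 to 93.4 CPM at day 5. The difference at day 0 lay in Klrd1 alone (151 ± 9.82 against 46.9 ± 1.16 CPM), since Eomes stood at 12.1 ± 3.98 against 13.8 ± 4.23 CPM and Ncr1 and Klrb1c, the defining markers, at no more than 0.584 CPM in either group mean. The B-cell list summed to 122 to 124 CPM in WT and 143 to 166 CPM in KO at day 0 and to 67.4 to 84.3 CPM at day 5, the CD4 list to at most 2.998 CPM, the myeloid list to at most 19.0 CPM and the erythroid list to at most 0.904 CPM in any library; 2 to 4 of the 5 B-cell markers were at or under 3 counts per group. Several of the receptors, Cd28, Tnfrsf4 and Tnfrsf18 among them, are also expressed by regulatory T cells. The part of the cells that carry these markers in any receptor value was not tested.

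Most of the tested ligands of the receptors, several of which are best known from antigen-presenting cells, rose in culture. Of 13 ligand genes 10 were tested, and 2 of them (Cd80 and Tnfsf4) reached the filter's level only at day 5, so that their direction was set by the filter. Of the 8 that reached it at both days, Tnfsf14 at day 0 through the KO libraries alone, 6 rose and 1 fell in WT and 6 rose and none fell in KO, beside 47.7% and 48.9% of the 10595 such genes called in either direction. Fasl, the ligand of FAS and an effector of killing, went from 4.29 and 0.678 CPM to 523 and 428 CPM in WT and from 3.77 and 3.67 CPM to 462 and 387 CPM in KO (log2 fold change 7.47, SE 0.34, and 6.82, SE 0.31). The Fas to Fasl ratio per kilobase accordingly went from 17.7 to 106 in the WT libraries and 16.2 to 17.9 in the KO libraries of day 0 to between 0.213 and 0.371 at day 5, the highest ratio resting on 3 Fasl counts. Lta, which encodes a ligand of TNFR1 and TNFR2, rose by 3.93 in WT and 4.53 in KO, Tnf by 3.52 and 3.05, and Tnfsf9, the 4-1BB ligand, by 3.83 and 2.92, to 20.4 to 21.6 CPM. Tnfsf4, the OX40 ligand, had 0 and 1 counts in WT and 0 and 5 counts in KO at day 0 and 37 to 60 counts in the day 5 libraries, and Icosl, the ICOS ligand, rose in KO to 11.2 ± 2.15 CPM (log2 fold change 1.58, SE 0.36, adjusted p = 0.00308) with a value of -0.38 in WT and an interaction adjusted p of 0.190. Cd70, Tnfsf18 and Nectin2, ligands of CD27, GITR and the CD226 group, had at most 2 counts in any library.

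Between genotypes, 2 of the 10 tested ligands were called at day 0, beside 1.80% of all tested genes, and none at day 5, where 2 had an unadjusted p under 0.05, beside 14.1% of all tested genes. Cd86, a ligand of CD28 and CTLA4, was lower in KO at day 0 (39.2 ± 9.99 against 86.7 ± 2.36 CPM, log2 fold change -1.13, SE 0.20, adjusted p = 0.0143). Tnfsf14, the HVEM ligand LIGHT, was higher (74 and 24 counts against 6 and 2, log2 fold change 2.76, SE 0.54, adjusted p = 0.0241). Both calls were lost without either WT library of day 0 (adjusted p up to 0.161 for Cd86 and 0.217 for Tnfsf14), that of Cd86 also without KO replicate 2 (0.0769) and that of Tnfsf14 also without KO replicate 1 (0.0941).

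The 5 inhibitory receptors that bind HVEM or the ligands of CD28 or CD226 were all tested and were all called over culture in both genotypes, 3 higher (Ctla4, Tigit and Cd160) and 2 lower (Btla and Cd96), beside 48.3% and 50.2% of all tested genes. Tigit reached the filter's level in 2 libraries only at day 5, so that its direction was set by the filter. Ctla4, which competes with CD28 for B7 ligands, had 3.22 and 2.71 CPM in WT and 40.3 and 21.7 CPM in KO at day 0, and 295 and 272 CPM in WT and 276 and 262 CPM in KO at day 5. It was thus higher in KO at day 0 (log2 fold change 3.40, SE 0.32, adjusted p = 0.000106) and overlapped between genotypes at day 5 (-0.07), and its interaction passed the test (-3.47, SE 0.38, adjusted p = 0.00794), although not without WT replicate 1 or 2 of day 0 (0.0992 and 0.0704). The ratio of Cd28 to Ctla4 per kilobase was 35.9 and 48.0 in WT and 3.66 and 7.04 in KO at day 0, and between 0.428 and 0.724 at day 5. Tigit, the competitor of CD226, rose from 5 to 8 counts per library to 34.9 to 58.3 CPM, and the Cd226 to Tigit ratio went from between 14.7 and 81.0 to 0.552 in both WT libraries and 0.269 and 0.349 in the KO libraries, with 5 to 8 Tigit counts behind each day 0 ratio. At day 5, Btla was lower in KO (36.4 ± 1.80 against 70.4 ± 7.48 CPM, -0.95, adjusted p = 0.00780) and Cd160 higher (94.2 ± 13.5 against 49.8 ± 0.10 CPM, 0.92, adjusted p = 0.0142); without KO replicate 1 or 2 of day 5 the adjusted p was 0.103 and 0.107 for Btla and 0.179 and 0.0631 for Cd160, and without WT replicate 1 or 2 it was 0.0509 and 0.0689 for Cd160. The rise of Cd160 in WT was lost without WT replicate 1 or 2 of day 0 (adjusted p = 0.0559 and 0.0575) and once GC content and length were offset (0.11, adjusted p = 0.616). Cd96, the other competitor of CD226, fell by 1.37 in WT and by 0.97 in KO. The Cd226 to Cd96 ratio was 0.0987 and 0.0788 at day 0 and 0.175 and 0.145 at day 5 in WT, and 0.101 and 0.0944 at day 0 and 0.0985 and 0.0818 at day 5 in KO, so it went up in WT without overlap and overlapped between days in KO, unlike the ratio to Tigit.

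**Figure D4:**
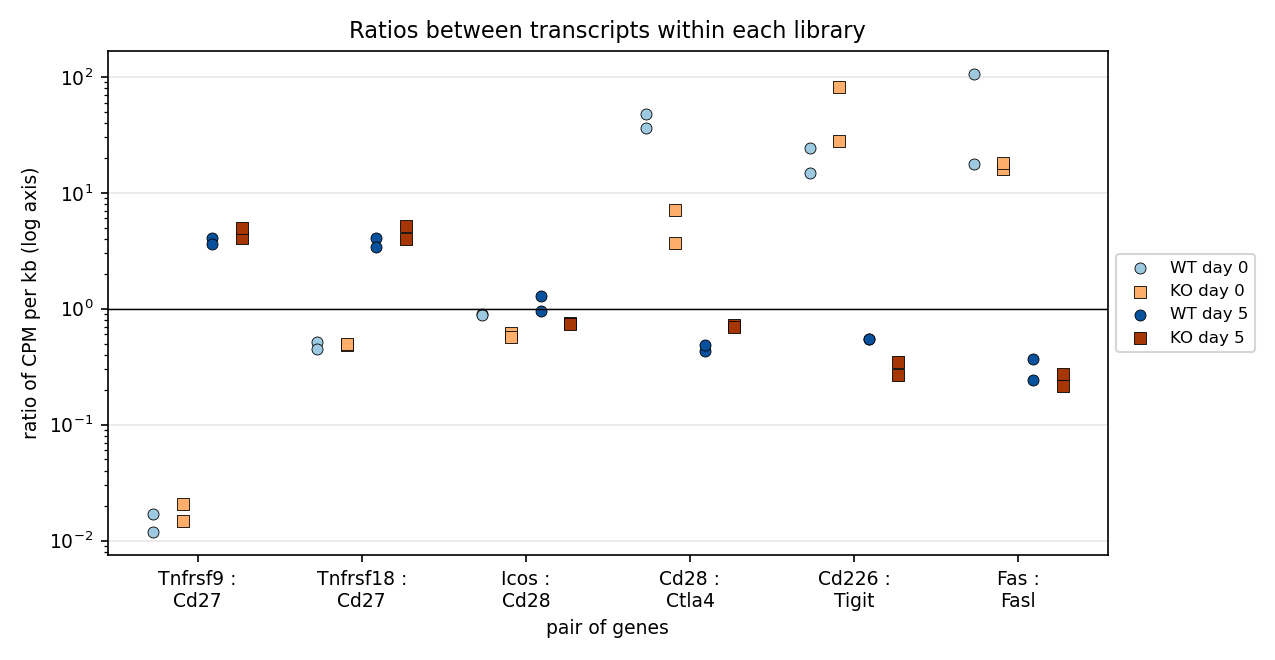
Ratio of CPM per kilobase between 2 transcripts within each library (log axis, line at 1), 2 points per group, for Tnfrsf9 and Tnfrsf18 against Cd27, Icos against Cd28, and 3 receptors against a competitor or ligand (Ctla4, Tigit, Fasl). The first 2 ratios cross 1 upward and the last 3 cross it downward between day 0 and day 5 in all libraries.

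Among the signalling genes downstream of the receptors, falls were more frequent than rises. Of 22 tested adaptors and kinases, 1 rose and 11 fell in WT and 1 rose and 9 fell in KO, with medians of -0.53 and -0.35 beside -0.04 and -0.05 over all genes. The share called was near the 48.3% and 50.2% of all tested genes. By direction, 24.7% of all tested genes were called higher and 23.6% lower in WT, and 26.2% and 24.0% in KO. Some falls, named after their values were seen, were called under part of the alternatives only. These were Fadd in WT (8 of 17) and Grap2 (7 of 18), Birc2 (9 of 18) and Vav1 (14 of 18) in KO. Map3k14, the NF-kB-inducing kinase, fell most (33.9 ± 2.62 to 7.27 ± 1.30 CPM in WT, log2 fold change -2.23, SE 0.22, and -2.20, SE 0.21, in KO), Traf3, which restrains that kinase, fell by 1.33 in WT and by 1.78 in KO, and Daxx, a partner of FAS, fell by 0.98 and by 0.89. The WT value of Traf3 was lost without replicate 2 of day 0 (-0.69, adjusted p = 0.147) or of day 5 (-1.08, adjusted p = 0.0728). Malt1, a paracaspase of antigen receptor signalling, was the 1 that rose (1.12, SE 0.18, in WT and 0.57, SE 0.18, in KO); in KO the call was lost with library totals alone (0.38, adjusted p = 0.108), with no filter on low counts (0.0534) and without KO replicate 1 of day 0 (0.0933) or replicate 1 or 2 of day 5 (0.0674 and 0.0835). None of the 22 was called between genotypes at day 0, where 5 had an unadjusted p under 0.05 beside 13.8% of all tested genes, and at day 5 Traf5, an adaptor of several TNF receptors, was lower in KO (9.41 ± 0.99 against 23.3 ± 9.28 CPM, -1.29, adjusted p = 0.0436). The Traf5 call held under 10 of 18 alternatives, and without KO replicate 1 or 2 of day 5 the adjusted p was 0.179 and 0.372. Without WT replicate 2 of day 5 the value was -0.83 (adjusted p = 0.219).

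Of 8 NF-kB subunits and inhibitors, 1 rose and 5 fell in WT and 1 rose and 3 fell in KO, with medians of -1.01 and -0.60, so that in KO 4 of 8 were called beside 50.2% of all tested genes, and in WT 6 of 8 beside 48.3%. The WT count includes Nfkb2, the p100 and p52 subunit, named after its values were seen, which had 17 and 12 counts at day 0 and 5 and 5 at day 5 (adjusted p = 0.0398) and was called under 4 of 17 alternatives. Without either WT library of day 0 or replicate 1 of day 5, the calls of both Nfkb2 and Tnfaip3 were lost. Nfkb1, the p105 and p50 subunit, was the one that rose (1.07 in WT and 0.95 in KO, SE 0.17 each). Nfkbia, the inhibitor IkBa, fell by 2.06 in WT and by 1.31 in KO, Rela, the p65 subunit, fell by 1.37 and by 0.77, and Tnfaip3, the inhibitor A20, fell by 0.66 and by 0.72. The Tnfaip3 call in WT was lost with DESeq2 (adjusted p = 0.0907), with no filter on low counts (0.0513) and without 3 of the 4 WT libraries (0.0534 to 0.232), and that in KO without 3 of the 4 KO libraries (0.0527 to 0.112). Nfkbie, a further inhibitor, fell by 1.44 in WT and stood at -0.62 in KO (adjusted p = 0.0646). Between genotypes, Nfkbia was lower in KO at day 0 (80.9 ± 7.80 against 158 ± 4.02 CPM, -0.97, adjusted p = 0.0357, called under 10 of 18 alternatives and up to 0.254 without WT replicate 1 of day 0), and Rela was higher in KO at day 5 (54.6 ± 0.19 against 29.5 ± 0.75 CPM, 0.89, adjusted p = 0.0122, but 0.100 and 0.156 without KO replicate 1 and 2, 0.0624 without WT replicate 2 and 0.0833 with the offset).

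The other TNF receptors served as the group most like the costimulatory ones. Of 20 genes 12 were tested, and 2 of them (Tnfrsf8 and Tnfrsf21) reached the filter's level only at day 5. Of the other 10, 1 rose and 5 fell in WT and 3 rose and 4 fell in KO, with medians of -0.46 and -0.19 on the log2 scale, beside 47.7% and 48.9% called among all genes that reached it at both days. The 3 rises in KO were those of Tnfrsf1a, Tnfrsf13b and Tnfrsf13c, the last pair named after their values were seen, and all 3 calls were lost without KO replicate 2 of day 5 (adjusted p = 0.108, 0.209 and 0.230) and with the offset (0.284, 0.615 and 0.243). The WT rise was that of Tnfrsf10b, also named afterwards and called under 12 of 18 alternatives, and Tnfrsf13b fell in WT under 10 of 18. Tnfrsf25, the receptor DR3, fell by 2.43 in both genotypes, Relt by 1.85 and by 1.30, Tnfrsf26 by 0.70 and by 1.08, and Tnfrsf22 by 0.75 and by 1.07, its WT call being lost without WT replicate 2 of day 5 (adjusted p = 0.0635). Tnfrsf1a, which encodes TNFR1, rose by 0.77 in KO (adjusted p = 0.0114, also lost with no filter on low counts at 0.0565) and stood at -0.38 in WT. Tnfrsf8, which encodes CD30, had at most 2 counts in each day 0 library and 2.65 and 3.37 CPM in WT and 17.7 and 17.8 CPM in KO at day 5, where it was higher in KO (2.56, SE 0.44, adjusted p = 0.0122), a call lost without any 1 day 5 library (0.0653 to 0.134). At day 0, Tnfrsf25 was lower in KO (22.4 ± 2.82 against 49.8 ± 0.97 CPM, -1.16, adjusted p = 0.0487, called under 7 of 18 alternatives and up to 0.269 without WT replicate 1).

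The genes whose log2 CPM followed each receptor most closely were sought among 8003 genes with a mean of at least 10 CPM over the 8 libraries, which share the division into days. Tnfrsf9 was followed by Kif2c and Brip1 (Pearson r = 0.9995 each), Tnfrsf4 by Fbxo5 (0.9989) and Eif2s2 (0.9985), and Tnfrsf18 by Gm16008 (0.9993) and Tpi1 (0.9979). Between 1073 and 1131 genes exceeded 0.95 with each of these 3 receptors. Cd27 was followed by Tnfrsf26 (0.9933) and Crnkl1 (0.9911), Cd226 by Tmem251 (0.9914) and Naa25 (0.9827), Icos by Prps1 (0.9921) and Rbmxl1 (0.9908), and Fas by Abt1 (0.9926) and Naa20 (0.9907). Cd28 and Tnfrsf1b stood apart: 1 gene exceeded 0.95 with Cd28 (Tnfaip1, 0.978, before Slc35c2 at 0.940) and none with Tnfrsf1b (RP23-106I21.5 at 0.929 and Dhx35 at 0.872).

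Cd28, Icos and their relative Ctla4 lie side by side on chromosome 1 of GRCm38, at 60716800-60773359, 60977927-61000320 and 60887000-60915832, all on the plus strand. Their changes in culture nevertheless differed, at 0.07, 0.40 and 6.56 on the log2 scale in WT. Tnfrsf4 (156013843-156016612) and Tnfrsf18 (156026164-156028895) are neighbours on chromosome 4, on the plus strand. The same chromosome carries Tnfrsf9 (150914562-150946102) on the plus strand and Tnfrsf14 (154921933-154928563) and Tnfrsf1b (145213463-145246870) on the minus strand. Tnfrsf9, Tnfrsf4 and Tnfrsf18 rose in both genotypes, Tnfrsf1b did not pass the test and Tnfrsf14 was counted at most 13 times in any library. Cd27 lies on chromosome 6 (125232622-125237010), on the minus strand, Cd226 on chromosome 18 and Fas on chromosome 19 (34290666-34327772).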

How the data were processed

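The submitters' processing notes name HISAT2 2.1.0, HTSeq 0.11.1 and the builds mm10 and GRCm38 (50-base reads); the annotation and strand setting of the counting are not given in the sources used here. The deposited files hold whole-number counts per gene symbol, 1 file per library, made by the authors and not normalized. Gene counts were 21.2 to 24.5% of the records of a file. Reads that were not unique made up 31.8 to 37.4% of all records, and reads without a feature 27.5 to 33.7%. Rows for unassigned reads stayed out of all totals. CPM used TMM-scaled totals (edgeR 4.0.16). Genes passed filterByExpr at a minimum count of 10. The main test was edgeR's quasi-likelihood test over all 8 libraries with 4 groups, p-values adjusted by Benjamini-Hochberg over 12597 genes, threshold 0.05. Exon lengths and positions came from GENCODE M21 (46394 of 48321 symbols matched). Scripts were tested on simulated data. The receptors, gene lists and tests were chosen with earlier results of these data known. Named in the text were all receptors, Satb1, the genes of each list with the largest changes (up to 6 with at least 10 CPM in a group) or a genotype or interaction call, and the 2 closest genes by correlation. The values of 1 listed signalling gene are not reported here. Alternatives were DESeq2, other scalings and filters, thinned counts, a replicate block, the libraries of a comparison alone, each library left out, and an offset for GC content and length chosen after seeing the data.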

Additional observations from a re-analysis of the deposited data

Results flagged for a closer look

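Ctla4, the competitor of Cd28 for its ligands, responded to culture differently in the 2 genotypes: it rose by 6.56 on the log2 scale in WT and by 3.08 in KO, and the test of the difference gave -3.47 (SE 0.38, edgeR adjusted p = 0.00794), a call lost without either WT library of day 0 (0.0992 and 0.0704). Satb1, the targeted gene, stood at 0.16 over culture in WT and fell by 1.18 in KO, and the test of the difference gave -1.34 (SE 0.21, edgeR adjusted p = 0.0269), a call lost without 6 of the 8 libraries, each left out in turn (0.0501 to 0.230), and once GC content and length were offset (0.0859). Neither gene is one of the 10 receptors, none of which passed this test. At day 0, where Ctla4 differed between genotypes, Foxp3 (54.8 against 9.76 CPM) and Ikzf2 (71.8 against 15.6 CPM) were also higher in KO. The part of regulatory T cells in the Ctla4 values was not tested.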

How the results depend on the processing

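Over all alternatives run, the count of receptors called between KO and WT at day 0 and for interaction stayed at 0. The count for KO against WT at day 5 was 1 in the fit of all libraries, 0 with only the 4 libraries of the comparison, and 0 to 2 with 1 library left out. Over culture, leaving out 1 library gave 5 to 7 called receptors in WT and 7 to 8 in KO. Of 801 receptor values under an alternative, 741 kept direction and side of the threshold, 24 lost a call, 2 gained one and 34 changed sign; 33 of these 34 were of uncalled values. An offset for the GC content and the length of each gene turned Icos over culture in WT to -0.0053, Cd28 to -0.068, Tnfrsf1b in KO to -0.092, Cd226 at day 0 between genotypes to -0.067, Icos and Tnfrsf18 at day 5 between genotypes to 0.10 and -0.023, and the interaction of Tnfrsf18 to -0.18. Library totals turned Cd28 over culture in WT to -0.062 and the interaction of Tnfrsf18 to -0.012, and counts thinned to the smallest total turned Icos at day 5 between genotypes to 0.0059 and the interaction of Tnfrsf4 to 0.0082. The cause of these turns was not tested. With 1 library left out, KO against WT at day 0 ranged from -0.42 to 0.79 for Tnfrsf1b, -0.077 to 0.30 for Cd226, -0.74 to 0.063 for Tnfrsf4, -0.0099 to 0.13 for Cd27 and -0.00029 to 0.17 for Tnfrsf18; at day 5 from -0.19 to 0.17 for Icos, -0.056 to 0.14 for Tnfrsf9 and -0.052 to 0.25 for Tnfrsf18; over culture from -0.0042 to 0.17 for Cd28 in WT, -0.49 to 0.46 for Tnfrsf1b in WT and -0.12 to 0.98 for Tnfrsf1b in KO; and the interaction from -0.13 to 0.18 for Tnfrsf18, -0.16 to 1.05 for Tnfrsf1b and -0.68 to 0.11 for Tnfrsf4. Library totals shifted the median of all genes over culture to -0.174 in WT and -0.229 in KO, the offset to -0.211 and -0.222, no filter on low counts to -0.08 and -0.405, and DESeq2 to -0.0634 and -0.383. The count of all genes called ranged from 38 to 434 at day 0, 32 to 418 at day 5 and 0 to 154 for interaction. Deviations from group means were correlated between same-numbered libraries. Between day 0 and day 5 the correlation was 0.118 in WT and 0.228 in KO, and in the other pairs of groups it lay between -0.0742 and 0.00438. With 2 libraries per group, these values cannot decide whether replicate numbers pair the libraries of the 2 days. With the replicate block the count of receptors called was 0 and 1 between genotypes, 7 and 8 over culture and 0 for interaction. Depth limited Tnfrsf14, at no more than 13 counts, and Tnfrsf4 at day 0.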
